A study of Mus musculus with 10 samples.

Results

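The myosin light chains and their kinases were examined in left ventricular (LV) tissue of mice with pressure overload. They were the 9 genes Myl1, Myl2, Myl3, Myl4, Myl7, Myl9, Mylk, Mylk3 and Mylk4, picked by gene symbol from the 55401 genes of each gene table. All 9 had a mean FPKM of at least 1 and were among the 11867 genes tested. FPKM, the fragment count scaled for transcript length and library depth, is a level per length. Its ratio to the deposited coverage, the mean read depth over a gene, was not the same for all members. In nAAC replicate 1 it was 0.147 for Myl7 and 1.32 for Mylk. Ranks, ratios and shares between genes are therefore given for FPKM and need not hold by coverage. Wild-type mice received neonatal ascending aorta constriction (nAAC), in which the ascending aorta is narrowed within a day of birth, or a sham operation. RNA was taken from the LV at 4 weeks of age, with 5 mice and 1 library per mouse in each group. The pups of both groups stayed with their mothers and were breast fed, and no other allele or agent was named for either. The constriction raises the load on the LV from birth on, so it models a congenital outflow obstruction and not one of adult onset.

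In every myosin molecule each heavy chain carries an essential and a regulatory light chain. Ventricular cardiomyocytes use the products of Myl2 and Myl3, atrial cardiomyocytes those of Myl7 and Myl4, fast skeletal muscle that of Myl1, and smooth muscle that of Myl9. Light chain kinases phosphorylate the regulatory chain. In smooth muscle this starts contraction, whereas in the heart it tunes the force and speed of a contraction that is switched on by troponin. Mylk encodes the smooth muscle enzyme, Mylk3 the cardiac enzyme and Mylk4 a related kinase of striated muscle.

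The whole tissue of the LV was sequenced, to an estimated 4.86 to 6.82 gigabases in nAAC and 5.06 to 5.24 in sham libraries. The defining genes of cardiomyocytes were abundant in every mouse, with a summed FPKM of 13 markers of 13831 to 19484 in nAAC and 14826 to 24482 in sham. Sham replicate 4 stood apart from the rest of its group. In it 544 genes were higher and 122 lower than in the other sham mice by over 1 on the log2 scale, against at most 70 and 125 in any other library. Genes with transcripts under 1000 nucleotides were shifted up in this library by a median of 0.64, and those over 10000 nucleotides were shifted by -0.61. The next largest shifts of the short class were -0.38 in sham replicate 2, -0.31 in nAAC replicate 1 and -0.30 in sham replicate 3. The longest coding transcripts of the 6 light chain members run from 590 to 1128 nucleotides and those of the 3 kinases from 3696 to 7824. Results that rest on sham replicate 4 are therefore given with and without it. Xist, transcribed from the inactive X chromosome of females, was above an FPKM of 1 in 4 nAAC and 2 sham mice. It was 14.8 to 17.9 in these nAAC mice and 10.6 in sham replicate 5, but an intermediate 3.70 in sham replicate 4. A fit with Xist as a covariate left every call on the 9 members as it was. It moved the changes of Myl4 and Myl7, which did not pass, to 2.27 and 1.95.

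The light chain kinases of the heart fell and the smooth muscle kinase and light chain rose, whereas the main ventricular light chains did not differ beyond the spread between mice. Mylk3 and Mylk4 were lower in every nAAC mouse than in any sham mouse, Mylk was higher in every nAAC mouse, and the mean FPKM of Myl9 was 39.4 in nAAC and 17.1 in sham. Myl1 rose as well, and Myl2, Myl3, Myl4 and Myl7 did not pass the test. Log2 fold changes are of FPKM + 1, nAAC against sham, from limma with p-values adjusted over all genes tested, and a gene passed with an adjusted p under 0.05. A gene that passed with a change of over 1 in either direction was called differentially expressed. Of the 9 members, 3 rose and 2 fell, and 27.1% of all genes tested rose, 4.6% fell and 31.7% did either. The only member differentially expressed was Myl9, which rose, while 5.91% of all genes tested were differentially expressed in either direction and 5.01% upward. The groups did not overlap for 3 members, Mylk, Mylk3 and Mylk4, and for 22.3% of all genes tested. The median log2 change was 0.56 over the members and 0.22 over all genes tested.

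The positive median of all genes was removed by rescaling each library with median-ratio size factors, which put it at -0.00. The changes of the kinases of the heart were then larger, -1.08 for Mylk3 and -1.25 for Mylk4, and both were differentially expressed. Myl9 still passed at 0.78. Mylk (0.34, adjusted p in limma 0.0861) and Myl1 (0.41, adjusted p 0.203) did not pass, so that the rises of these 2 genes were called on the deposited FPKM scale but not relative to the typical gene.

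**Figure D1:**
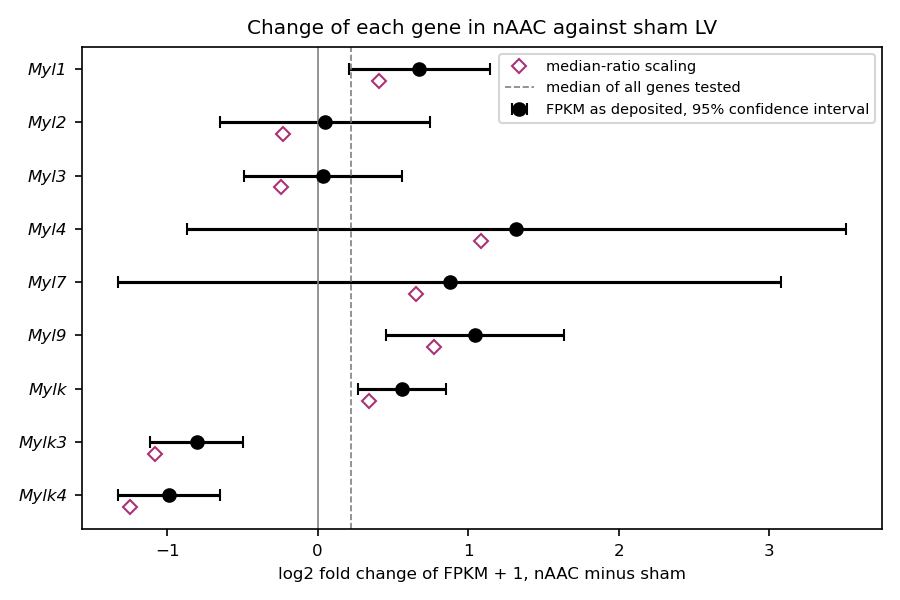
Log2 fold change of the 9 members, nAAC against sham, with the 95% confidence interval of each change as a bar. Open diamonds give the change after median-ratio scaling. The dashed line marks the median of all 11867 genes tested, 0.22. Mylk3 and Mylk4 lie left of 0, Myl9 and Mylk lie right of the dashed line, and Myl4 and Myl7 have the widest bars.

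The windows of 250 bases before RefSeq transcript starts were searched on both strands for binding motifs of muscle genes, and 11 windows were found for the 9 members. The CArG box, the motif of serum response factor, occurred in 3 of the 11 windows, against 1.47% of the 32851 windows of all genes. These 3 windows belong to Myl3, Myl7 and Myl9, a ventricular, an atrial and a smooth muscle light chain, and 60 bases around each box are shown because the 3 genes behaved differently in the tissue. The sequences are RefSeq's for GRCm38.p6, read 5′ to 3′ on the strand of the gene, with the CArG box in capitals.
Myl3, chr9:110763568-110763627, plus strand, bases -110 to -51 from the start: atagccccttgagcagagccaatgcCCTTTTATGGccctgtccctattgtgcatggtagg
Myl7, chr11:5898809-5898868, minus strand, bases -86 to -27: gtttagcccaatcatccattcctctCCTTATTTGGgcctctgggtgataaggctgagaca
Myl9, chr2:156775278-156775337, plus strand, bases -186 to -127: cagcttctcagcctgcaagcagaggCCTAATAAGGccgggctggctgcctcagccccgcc

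Of these 3 genes only Myl9 passed the test. A MEF2 box, the motif of myocyte enhancer factor 2, was found in 1 member window, that of Mylk4, and in 2.92% of all windows. The M-CAT motif CATTCC, bound by TEAD factors, was in 5 windows, 1 each of Myl1, Myl3, Myl7, Mylk and Mylk3, and in 12.6% of all windows. The E-box CANNTG was in 7 windows of 6 members and in 66.2% of all windows. Mylk3 has another window further upstream, chr8:85381042-85381291, which held an E-box but no CArG, MEF2 or M-CAT match and is not shown. The Mylk3 windows lie inside the gene as placed below. The 150 bases before a start of Mylk3 and of Mylk4, the pair of members that fell, are shown. The M-CAT motif of Mylk3, on the opposite strand, and the MEF2 box of Mylk4 are in capitals.
Mylk3, chr8:85365325-85365474, minus strand, bases -150 to -1: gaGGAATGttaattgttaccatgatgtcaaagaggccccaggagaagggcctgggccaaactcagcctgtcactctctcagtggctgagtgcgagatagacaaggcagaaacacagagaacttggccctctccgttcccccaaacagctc
Mylk4, chr13:32783965-32784114, minus strand, bases -150 to -1: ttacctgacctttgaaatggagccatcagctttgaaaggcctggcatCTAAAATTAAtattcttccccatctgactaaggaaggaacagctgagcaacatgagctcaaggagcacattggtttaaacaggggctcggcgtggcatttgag

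A match describes the letters of a window and not a bound site, and a window without a match says nothing of the factor. A RefSeq start need not lie at the end of the gene as placed below. The windows of Myl2, chr5:122092474-122092723 and chr5:122092939-122093188, lie wholly before the gene, which is placed from 122100951. The bases next to that position were therefore not searched.

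Myl2 (ENSMUSG00000013936, chr5:122100951-122113472, plus strand, GRCm38), the ventricular regulatory light chain, was the most abundant member in both groups by mean FPKM. By coverage, Myl2 was below Myl3 in every mouse but nAAC replicate 2. Its FPKM was 2021, 5070, 4154, 4090 and 2933 in nAAC replicates 1 to 5 and 2268, 2511, 2565, 6282 and 4713 in sham replicates 1 to 5. The lowest value was that of nAAC replicate 1 and the highest that of sham replicate 4, and the groups overlapped from 2268 to 5070. The means were 3654 ± 1187 (SD, n = 5) in nAAC and 3668 ± 1763 (SD, n = 5) in sham. The log2 change was 0.05 with a 95% confidence interval of -0.65 to 0.75 (adjusted p in limma 0.922). Without sham replicate 4 it was 0.27, and relative to the typical gene it was -0.23, so no direction can be given.

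Myl3 (ENSMUSG00000059741, chr9:110741861-110769798, plus strand), the ventricular essential light chain, is also used in slow skeletal muscle. Its FPKM lay between 2599.8 and 4145 in nAAC and between 2424 and 5636 in sham, again with sham replicate 4 highest. The means were 3417 ± 563 and 3475 ± 1359 (SD, n = 5 each), and the log2 change was 0.04 (95% confidence interval -0.49 to 0.56, adjusted p in limma 0.918). The FPKM of Myl3 divided by that of Myl2 was 0.987 ± 0.208 in nAAC and 0.984 ± 0.127 in sham (SD, n = 5 each). This ratio of the essential to the regulatory chain differed by -0.01 on the log2 scale (two-sided exact permutation test, p = 0.960, adjusted p over 6 ratios 0.960). Pth1r, a gene on the other strand, overlaps Myl3, but its highest FPKM was 5.95. Myl2 and Myl3 together held 96.4% to 99.2% of the summed FPKM of the light chain members in nAAC and 98.6% to 99.6% in sham.

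**Figure D2:**
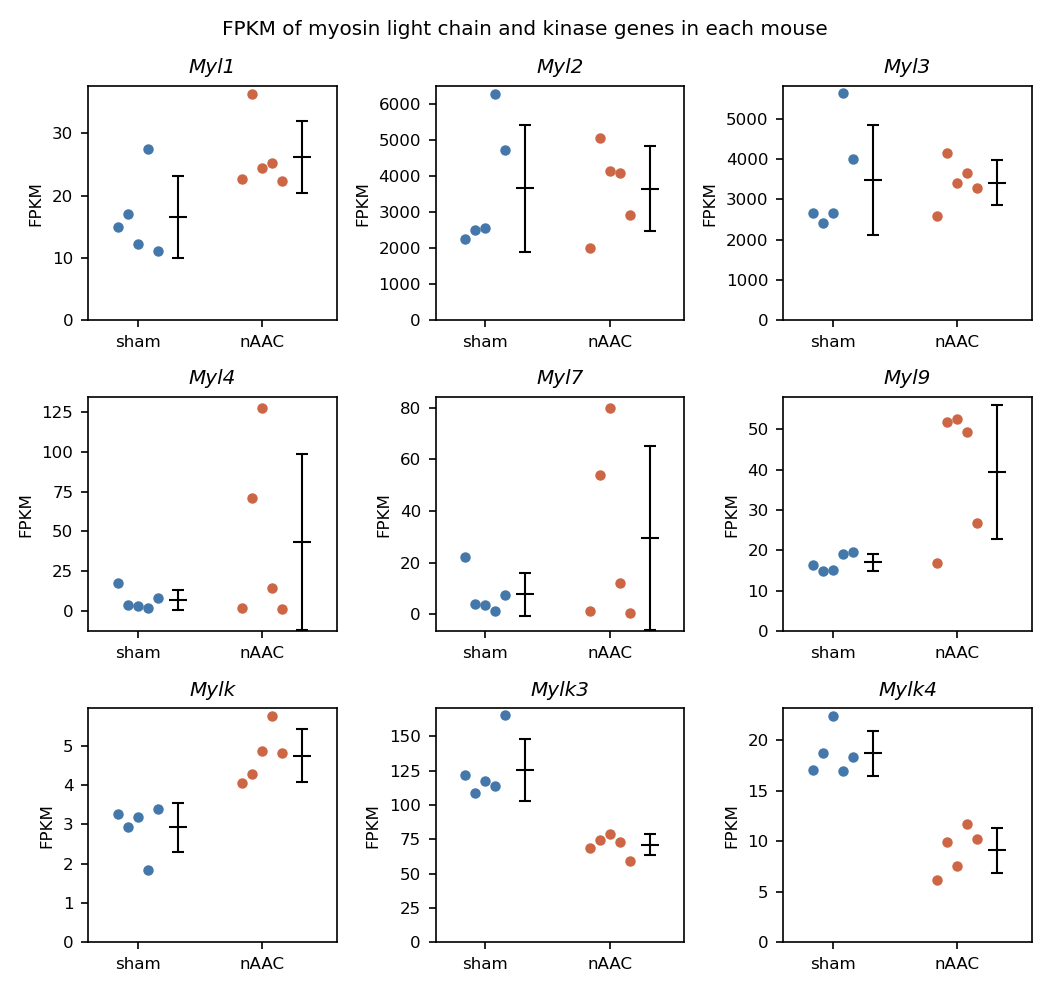
FPKM of each member in each mouse, 1 panel per gene with its own linear axis, with the 5 sham and 5 nAAC mice as points and the group mean ± SD. Mylk3 and Mylk4 form separate groups with nAAC below, Mylk separate groups with nAAC above, and Myl4 and Myl7 spread over the widest range within nAAC.

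Myl7 (ENSMUSG00000020469, chr11:5896637-5898782, minus strand), the atrial regulatory light chain, varied more within each group than between the groups. Its FPKM was 1.10, 54.0, 79.8, 11.9 and 0.65 in nAAC replicates 1 to 5. In sham replicates 1 to 5 it was 22.35, 3.89, 3.65, 1.16 and 7.33. nAAC replicates 2 and 3 were above every sham mouse, and nAAC replicates 1 and 5 were below every sham mouse. The log2 change was 0.88 with a standard error of 1.02 and a 95% confidence interval of -1.32 to 3.08 (adjusted p in limma 0.528).

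Myl4 (ENSMUSG00000061086, chr11:104550663-104595753, plus strand), the atrial essential light chain, is also made in the embryonic ventricle. Its FPKM was 1.61, 71.1, 127.7, 14.3 and 1.34 in nAAC replicates 1 to 5 and 17.8, 3.69, 3.10, 1.82 and 7.81 in sham replicates 1 to 5. The order of the 5 nAAC mice was the same as for Myl7, and sham replicate 1 was again the highest sham mouse. The log2 change was 1.32 with a standard error of 1.01 and a 95% confidence interval of -0.87 to 3.51 (adjusted p in limma 0.334).

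The isoform ratios carried the same spread. Myl7 made up 0.0223% to 1.88% of the sum of Myl2 and Myl7 in nAAC and 0.0184% to 0.976% in sham. Myl4 made up 0.0408% to 3.61% of the sum of Myl3 and Myl4 in nAAC and 0.0322% to 0.664% in sham. The log2 ratio of Myl7 to Myl2 was -8.73 ± 2.74 in nAAC and -9.44 ± 2.03 in sham (SD, n = 5 each; two-sided exact permutation test, p = 0.683, adjusted p over 6 ratios 0.819). Its difference of 0.71 became -0.03 without sham replicate 4 and -0.05 without nAAC replicate 3. The log2 ratio of Myl4 to Myl3 was -8.10 ± 2.86 and -9.39 ± 1.57 (two-sided exact permutation test, p = 0.389, adjusted p over 6 ratios 0.583). Both atrial chains thus stayed far below their ventricular counterparts in all 10 mice.

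Among all genes tested, the profile over the 10 mice most like that of Myl4 was that of Myl7, with a root mean square difference of centred log2 values of 0.30. The same measure was 0.60 for Sln and 0.997 for Mybphl, and the profile of Myl4 itself had an SD of 2.04. For Myl7 the nearest genes were Myl4 (0.30), Sln (0.58) and Nnt (0.92). Sln encodes sarcolipin, an atrial inhibitor of the calcium pump of the sarcoplasmic reticulum, and Nnt the mitochondrial nicotinamide nucleotide transhydrogenase. The FPKM of Sln was 0.00, 9.23, 19.4, 1.98 and 0.03 in nAAC replicates 1 to 5 and 4.62, 0.27, 1.01, 0.08 and 0.89 in sham replicates 1 to 5. nAAC replicates 2 and 3 were high and nAAC replicates 1 and 5 low for Sln, Myl4 and Myl7 alike.

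A list of 8 atrial markers without the light chains, Sln among them, was counted, where 27.1% of all genes tested rose and 4.6% fell. Of its 7 genes tested, Dkk3 rose (log2 change 2.57), 4 fell, from -2.07 for the potassium channel gene Kcnj3 to -0.93 for Kcnj5, and Sln (0.89, adjusted p in limma 0.390) and Kcna5 (0.34) did not pass. Its summed FPKM was 31.2, 52.9, 68.9, 51.0 and 36.9 in nAAC replicates 1 to 5 and 57.0, 47.1, 44.5, 48.4 and 57.9 in sham replicates 1 to 5. Within nAAC, replicates 3, 2 and 4 were the 3 highest in that order. In sham, replicates 1 and 5 were highest, and the groups overlapped. The sum includes Sln, named above as near to Myl4 and Myl7 in profile. The place of nAAC replicate 2 above replicate 4 rests on Sln, so this order is not independent of those profiles. Bmp10, a gene of right atrial cardiomyocytes, was at or near 0 in all mice. Whether atrial tissue had a part in the spread of Myl4 and Myl7 was not tested. In whole tissue, fewer cells of a type and less RNA per cell cannot be told apart.

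**Figure D3:**
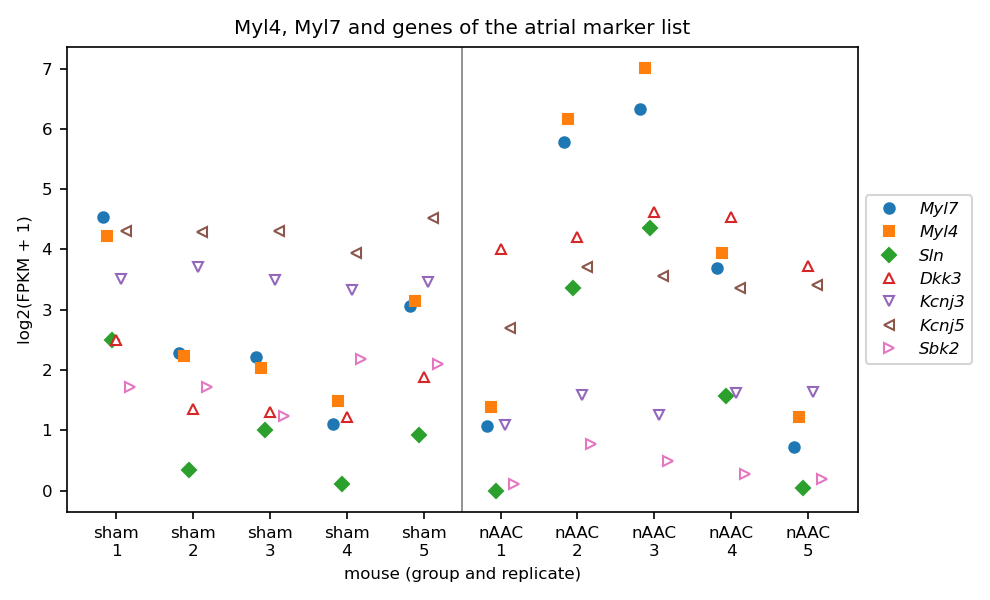
log2(FPKM + 1) of Myl4, Myl7 and Sln (filled) and of 4 other genes of the atrial list (open) in each mouse, with sham mice left of the line and nAAC mice right of it. Myl4, Myl7 and Sln are high together in nAAC replicates 2 and 3, whereas Dkk3 is high and Kcnj3 low in all 5 nAAC mice.

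Myl1 (ENSMUSG00000061816, chr1:66924295-66945404, minus strand), the essential light chain of fast skeletal muscle, was detected in every mouse. Its FPKM was 22.7, 36.3, 24.4, 25.3 and 22.4 in nAAC replicates 1 to 5 and 15.0, 17.0, 12.2, 27.5 and 11.2 in sham replicates 1 to 5. Of the sham mice only replicate 4, at 27.5, reached the nAAC values. The means were 26.2 ± 5.75 and 16.6 ± 6.52 (SD, n = 5 each), and the log2 change was 0.68 with a standard error of 0.22 (adjusted p in limma 0.0297). Without sham replicate 4 the change was 0.87 and the groups did not overlap. Leaving out nAAC replicate 2 or 4, or sham replicate 1, 3 or 5, ended the call, with adjusted p-values of 0.0577 to 0.0763.

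Other genes of fast skeletal muscle were nearly silent. Tnnc2 and Myh4 were listed at 0 in all mice, and none of the 12 genes of the fast skeletal list passed the filter on FPKM. Their summed FPKM was 0.737 to 1.96 in nAAC and 1.40 to 2.80 in sham. Tnni2 had a mean FPKM of 0.160 in nAAC and 1.31 in sham. With TPM in place of FPKM it was tested and its log2 change was -1.19 (adjusted p in limma 4.2e-05). Mylpf, the regulatory light chain that partners Myl1 in fast fibres, had a mean FPKM of 0.563 in nAAC and 0.489 in sham. The longest coding transcript of Myl1 shares 23.4% of its 50-base words with the pseudogene Mylf-ps, which had an FPKM of 1.53 to 2.95 over the 10 mice, so reads of the shared words cannot be told apart between them.

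Myl9 (ENSMUSG00000067818, chr2:156775420-156781658, plus strand), the regulatory light chain of smooth muscle, is made by vascular muscle, pericytes and activated fibroblasts. Its FPKM was 16.8, 51.75, 52.4, 49.2 and 26.8 in nAAC replicates 1 to 5 and 16.5, 15.0, 15.15, 19.1 and 19.5 in sham replicates 1 to 5. nAAC replicate 1 lay among the sham mice, and the other 4 nAAC mice lay above all of them. Of all libraries, nAAC replicate 1 had the most genes lower than in its group by over 1 on the log2 scale, 125. The means were 39.4 ± 16.5 and 17.1 ± 2.15 (SD, n = 5 each). The log2 change was 1.04 with a standard error of 0.27 and a 95% confidence interval of 0.45 to 1.64 (adjusted p in limma 0.0113). Leaving out nAAC replicate 2, 3 or 4 took the change below 1, to 0.91 at the lowest, and Myl9 still passed the test.

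The share of Myl9 in the sum of Myl2 and Myl9 was 1.03% ± 0.180 in nAAC and 0.524% ± 0.165 in sham (SD, n = 5 each). The log2 ratio of Myl9 to Myl2 was higher in nAAC by 1.04, at -6.60 ± 0.256 against -7.63 ± 0.500, and the groups did not overlap. The two-sided exact permutation test gave p = 0.0079, the smallest that 5 against 5 mice can give, and an adjusted p over 6 ratios of 0.0238. The genes nearest in profile to Myl9 were Mustn1 (root mean square difference 0.25), Gpatch4 (0.27) and Bex1 (0.27), against an SD of 0.74 for Myl9 itself.

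Marker lists of the cell types that make Myl9 were counted beside it, where 27.1% of all genes tested rose. After median-ratio scaling 1563 of all 11867 genes tested rose and 1431 fell. Of 9 smooth muscle markers 8 were tested and 6 rose, from 0.78 for Lmod1 to 1.54 for Tagln, the actin-binding protein transgelin. Smtn (-0.07) and Synpo2 (0.14) did not pass. After median-ratio scaling 5 rose. The summed FPKM of the list was 103 to 200 in nAAC and 86.1 to 110.6 in sham, and nAAC replicate 1, which was low in Myl9, was also the lowest nAAC mouse here at 103. Of 7 pericyte markers 4 rose and 3 did not pass, from -0.53 for Abcc9 to 1.24 for Cspg4. After median-ratio scaling 3 rose and Abcc9 fell (-0.81, adjusted p in limma 0.0184), and it also fell without sham replicate 4 (-0.76). The summed FPKM of the pericyte list overlapped between the groups, at 207.0 to 320.2 in nAAC and 167.0 to 301.8 in sham, and was lowest within nAAC in replicates 2 and 3, which were high in Myl9. Of 7 fibroblast markers 6 rose, up to 3.78 for Postn, periostin, and Pdgfra (0.26) did not pass. After median-ratio scaling 4 rose. Their summed FPKM was 534 to 954 in nAAC and 358 to 389 in sham, and within nAAC it was highest in replicate 1, the lowest in Myl9, and lowest in replicate 3, the highest in Myl9. Within nAAC, the smooth muscle sum was lowest in replicates 1 and 5, as was Myl9, and highest in replicate 4. None of the 3 sums had the same order of the 5 mice as Myl9. The part of these cells in the rise of Myl9 was not tested.

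**Figure D4:**
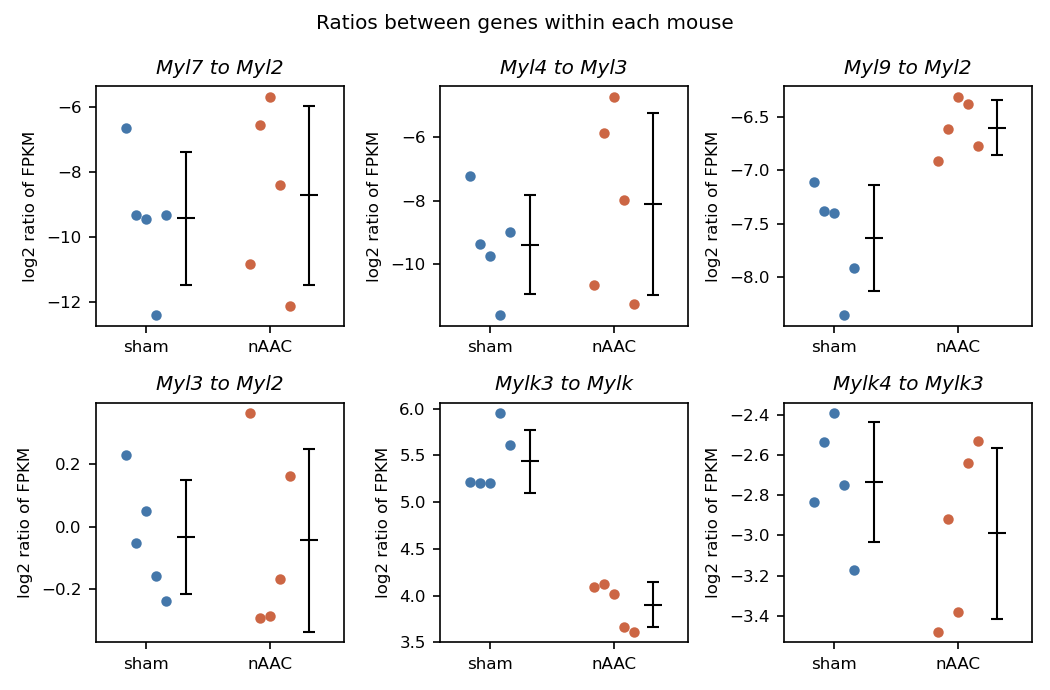
Log2 ratios of FPKM between isoforms in each mouse, sham and nAAC, with the mean ± SD. The groups separate for Myl9 to Myl2 and for Mylk3 to Mylk and overlap for the other 4 ratios.

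Mylk3 (ENSMUSG00000031698, chr8:85324303-85386345, minus strand), the cardiac light chain kinase, was the most abundant of the 3 kinases. Its FPKM was 68.9, 74.8, 78.8, 73.2 and 58.9 in nAAC replicates 1 to 5 and 121.7, 108.5, 117.5, 113.9 and 165.2 in sham replicates 1 to 5. Every nAAC mouse was below every sham mouse, a separation found in 3.46% of all genes tested. The means were 70.9 ± 7.59 and 125.4 ± 22.8 (SD, n = 5 each), a level 1.77-fold higher in sham. The log2 change was -0.80 with a standard error of 0.14 and a 95% confidence interval of -1.11 to -0.49 (adjusted p in limma 0.00104). The change was -0.83 without sham replicate 4, and the call held in all 21 settings tried.

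Mylk4 (ENSMUSG00000044951, chr13:32700827-32783954, minus strand) showed the strongest decrease of the members. Its FPKM was 6.18, 9.90, 7.56, 11.7 and 10.2 in nAAC replicates 1 to 5 and 17.1, 18.7, 22.4, 17.0 and 18.35 in sham replicates 1 to 5. The highest nAAC mouse was well below the lowest sham mouse. The means were 9.12 ± 2.22 and 18.7 ± 2.19 (SD, n = 5 each), a level 2.05-fold higher in sham. The log2 change was -0.99 with a standard error of 0.16 and a 95% confidence interval of -1.32 to -0.65 (adjusted p in limma 0.000458). It lay just short of the threshold of 1 for differential expression and crossed it in 9 of 21 settings. The log2 ratio of Mylk4 to Mylk3 was -2.99 ± 0.428 and -2.73 ± 0.299 (two-sided exact permutation test, p = 0.302, adjusted p over 6 ratios 0.583).

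Mylk (ENSMUSG00000022836, chr16:34745210-35002420, plus strand), the kinase of smooth muscle and non-muscle cells, changed the other way. Its FPKM was 4.05, 4.28, 4.86, 5.76 and 4.81 in nAAC replicates 1 to 5 and 3.28, 2.93, 3.19, 1.84 and 3.38 in sham replicates 1 to 5. Every nAAC mouse was above every sham mouse, which held for 18.9% of all genes tested, and sham replicate 4 was the lowest mouse. The means were 4.75 ± 0.662 and 2.92 ± 0.627 (SD, n = 5 each), and the log2 change was 0.56 with a standard error of 0.14 (adjusted p in limma 0.0075). Without sham replicate 4 the change was 0.45. The files hold 1 value per gene, so the long and short proteins that Mylk encodes were not told apart.

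Mylk3 and Mylk thus changed in opposite directions, and the ratio of their FPKM was compared. Mylk3 was 37.2, 37.0, 36.8, 61.8 and 48.9 times Mylk in sham replicates 1 to 5 and 17.0, 17.5, 16.2, 12.7 and 12.3 times Mylk in nAAC replicates 1 to 5. The groups did not overlap, which follows from the full separation of Mylk3 and of Mylk in opposite directions. The 3 lowest sham mice lay close together near 37. The log2 ratio was 3.90 ± 0.243 in nAAC and 5.44 ± 0.335 in sham, a difference of -1.53 (two-sided exact permutation test, p = 0.0079, the smallest possible, adjusted p over 6 ratios 0.0238). That p was fixed by the separation of the single genes, so the test adds no support beyond it. Without sham replicate 4 the difference was -1.41 with an adjusted p of 0.0476 in the same exact test. The unadjusted p was 0.0159, again the smallest possible.

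The summed FPKM of the 3 kinases was 84.8 ± 7.81 in nAAC and 147.0 ± 23.0 in sham (SD, n = 5 each). Mylk3 held 83.6% of this sum in nAAC and 85.1% in sham, Mylk4 10.8% and 12.9%, and Mylk 5.62% and 1.997%. Among the cardiomyocyte markers, which are made by the cells that use Mylk3, 4 of 13 rose and 2 fell, from -0.86 for Pln, phospholamban, to 0.86 for Mybpc3, cardiac myosin-binding protein C. Their median log2 change was 0.21, and that of all genes tested 0.22, with 27.1% of all genes rising. After median-ratio scaling 2 rose and 4 fell, with a median of -0.07, and the same counts were found after upper-quartile scaling. Over all 11867 genes tested 1563 rose and 1431 fell after median-ratio scaling.

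Other light chains were counted from a list that includes those of non-muscle cells. Of 7 further light chain genes 4 were tested, 3 rose and none fell, also after median-ratio scaling. Over all 11867 genes tested 27.1% rose, and 1563 genes rose after median-ratio scaling. Myl12a, a non-muscle regulatory light chain, had an FPKM of 364, 621, 561, 489 and 454 in nAAC replicates 1 to 5 and 157, 141, 173, 281 and 290 in sham replicates 1 to 5. All nAAC mice were above all sham mice, and the log2 change was 1.30 (adjusted p in limma 0.000959). Myl6, the essential light chain of smooth muscle and non-muscle cells, had means of 114.5 and 57.1 and a log2 change of 0.995 (adjusted p in limma 0.0032). Myl12b, a close relative of Myl12a, changed by 0.92 from a mean of 10.2 to 20.1. Myl6b changed by 0.24 and did not pass, Myl10 was listed at 0 in all mice, and Myl5 was not analysed here.

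Where 27.1% of all genes tested rose, the heavy chains that these light chains bind were counted from a list of 7. Of these 4 rose, Myh7, the slow or beta heavy chain, by 2.75, the non-muscle chains Myh10 by 1.36 and Myh9 by 0.96, and the smooth muscle chain Myh11 by 1.25. Myh6, the alpha heavy chain of the adult mouse heart, changed by -0.27 and did not pass. After median-ratio scaling the same 4 rose and Myh6 fell (-0.55), where 1563 of all 11867 genes tested rose and 1431 fell.

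Of 17 genes that act with the kinases on the regulatory light chain, 16 were tested, 4 rose and 1 fell, where 27.1% of all genes tested rose and 4.6% fell. The 4 that rose were Ppp1r12a (0.51) and Ppp1r12b (0.65), targeting subunits of the myosin phosphatase that reverses the kinases' action, Ppp1r14b (0.94), an inhibitor of the phosphatase, and Prkg1 (0.75), the cyclic GMP-dependent kinase. Ppp1r14c, another inhibitor of protein phosphatase 1, fell by 0.56 on the log2 scale. Its FPKM was 46.9, 52.1, 45.6, 43.9 and 46.4 in nAAC replicates 1 to 5 and 69.4, 78.8, 65.8, 67.8 and 66.0 in sham replicates 1 to 5. The 2 groups were again fully separate. Ppp1cb (-0.12), the catalytic subunit of the phosphatase, did not pass. Mylk2, the kinase of skeletal muscle, had a mean FPKM of 0.250 in nAAC and 0.0465 in sham and was not tested. Without sham replicate 4, 10 of the 16 genes rose and 1 fell, and the 4 named rises all passed. In that setting 3930 of all 11867 genes tested rose and 621 fell. With TPM in place of FPKM 11 rose and 1 fell, where 5304 of all 12954 genes tested rose and 383 fell. After median-ratio scaling Prkg1 alone rose, and Ppp1r14c and Ppp1cb fell, beside 1563 rises and 1431 falls over all genes tested. The number of rises thus depended on the scale.

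**Figure D5:**
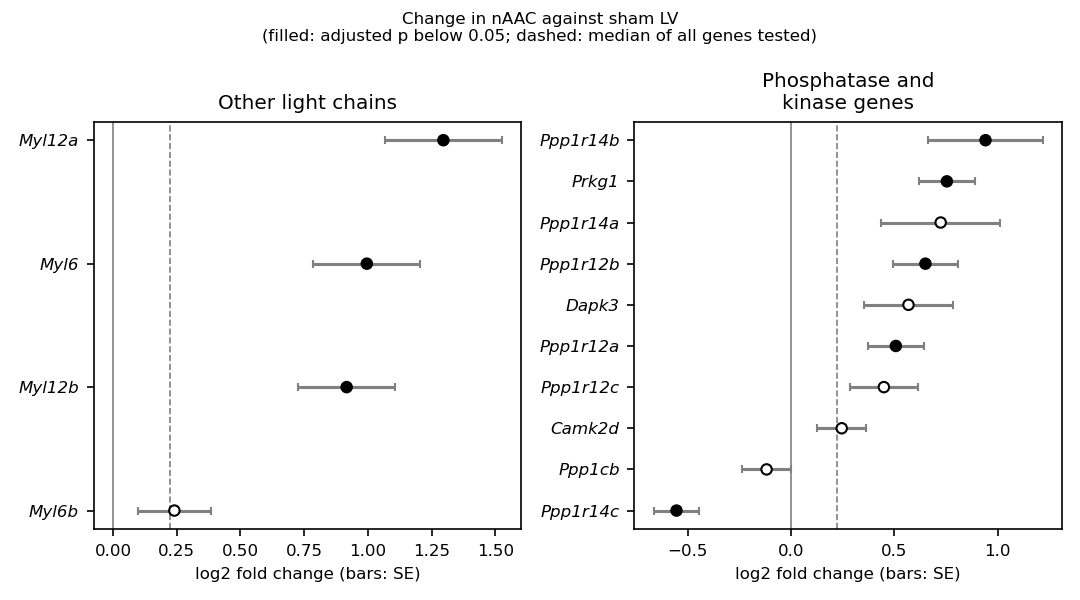
Log2 fold change, nAAC against sham, of the other light chain genes (left) and of the phosphatase genes and 3 kinase genes of the list of 17 (right), with standard errors as bars and filled points for genes that passed. Myl12a, Myl6 and Myl12b lie right of the median of all genes (dashed), and Ppp1r14c is the lowest gene of the right panel.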

How the data were processed

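LV RNA of 5 nAAC and 5 sham mice was sequenced from Trizol extracts with an NEBNext Ultra library kit, 1 library per mouse, and mice were grouped by the operation and number in their labels. Each mouse has a deposited table of coverage, FPKM and TPM by gene. The deposited coverage signal is the mean read depth over a gene, the deposited FPKM is scaled by the authors for length and library depth, and the deposited TPM is rescaled by the authors to a fixed total. The submitters' processing notes name mm10. The layout is that of StringTie, but the aligner, the quantifier and any use of strand are not given in the sources used here. Gene positions matched GENCODE M21 for 8 of the 9 members, and Mylk4 differed.

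Rows sharing a gene ID were summed. Whole reads cannot be recovered from FPKM, so no count model was used, and depth is an estimate from the commonest ratio of FPKM to coverage, shared by 15.0% to 16.6% of genes with an FPKM over 1. Log2(FPKM + 1) was tested, for genes averaging an FPKM of 1 or more, with limma 3.58.1 (R 4.3.3, trend) with Benjamini-Hochberg adjustment over all genes. A change on this scale understates that of low genes. The 6 isoform ratios were compared by two-sided exact permutation tests over all 252 splits (Python 3.11.15, scipy 1.17.1), adjusted over the 6. The tests were checked on simulated data. Alternatives changed the scaling, the pseudocount, the filter, the Xist covariate, the replicate block and each library in turn, and 2 were added after the data were seen, coverage per estimated gigabase and the omission of sham replicate 4 with nAAC replicate 1.

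The members and all lists were chosen with earlier results of these data known. All members were named, and in each list the genes with the highest and lowest change and a few with a known role. For Myl4, Myl7 and differentially expressed members the 3 genes of nearest profile were named. Ppp1r14c and Myl12a were given by mouse after their values were seen. Where the labels do not say that libraries came from separate litters or batches, p-values measure only the spread between these mice. Some genes of the list acting on the regulatory light chain are counted but not reported singly here.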

Additional observations from a re-analysis of the deposited data

Results flagged for a closer look

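Among 48 groups of 5 values examined, 3 had a highest or lowest mouse whose gap to its neighbour took more than 0.71 of the group's range (Dixon's criterion), where chance gives 2.4. For Myl1 the highest nAAC mouse was replicate 2, with a gap of 0.748 of the range of log2(FPKM + 1). For Mylk the lowest sham mouse was replicate 4, with a gap of 0.7505 of the range. For Mylk3 the highest sham mouse was replicate 5, with a gap of 0.727 of the range. Mylk and Mylk3 were called in nAAC against sham without the mouse concerned, and Myl1 was not called without nAAC replicate 2.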

How the results depend on the processing

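Of 312 values recomputed under other settings, 267 were classed as the same. For a change or a ratio this means the same direction and side of the threshold. For a count of members it allows a limited difference, so 2 rising members in place of 3 were classed as the same. Myl9, Mylk3 and Mylk4 passed the test in all 21 settings, Mylk in 19, Myl1 in 13, and Myl2, Myl3, Myl4 and Myl7 in none. Under median-ratio and upper-quartile scaling, Myl1 was 0.41 and 0.42 (adjusted p in limma 0.203 and 0.161) and Mylk 0.34 and 0.35 (adjusted p 0.0861 and 0.105), so 1 member rose in place of 3. With no filter the change of Myl1 was 0.68 with an adjusted p of 0.085. Under median-ratio scaling, upper-quartile scaling and Xist as a covariate, Myl2 turned to -0.23, -0.22 and -0.075, and Myl3 to -0.24, -0.23 and -0.094. The number of differentially expressed members was 2 in place of 1 under both scalings, a pseudocount of 0.1 and coverage per gigabase. Over all genes, 3211 rose and 546 fell as reported, 1563 and 1431 after median-ratio scaling, 1620 and 1359 after upper-quartile scaling and 1593 and 390 with Xist. The 701 differentially expressed genes became 1121 with the pseudocount of 0.1 and 1140 with TPM.

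With each mouse left out in turn, the log2 change ranged from 0.56 to 0.87 for Myl1, -0.095 to 0.27 for Myl2, -0.073 to 0.23 for Myl3, 0.55 to 1.9998 for Myl4, 0.17 to 1.58 for Myl7, 0.91 to 1.31 for Myl9, 0.45 to 0.61 for Mylk, -0.85 to -0.70 for Mylk3 and -1.08 to -0.87 for Mylk4. Without sham replicate 4 and nAAC replicate 1 together, Myl2 was 0.47 and Myl3 was 0.33. The number of members that rose was 2 to 3 and the number differentially expressed 0 to 2, with 0 without nAAC replicate 3. The log2 difference ranged from -0.050 to 1.56 for Myl7 to Myl2 and from -0.11 to 0.055 for Myl3 to Myl2. The causes were not tested.

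Same-numbered nAAC and sham mice did not deviate together, with correlations of -0.32 to 0.19, and none correlated best with its own number. With the replicate number as a block, 3 members rose and 2 fell, and 2929 of all genes rose and 497 fell. The paired form of the ratio test left Myl9 to Myl2 at 1.04 and Mylk3 to Mylk at -1.53 with an adjusted p of 0.1875 each (exact sign flips), where the smallest possible unadjusted p is 0.0625. Depth was known only as an estimate, so no counting error could be given.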

Other observations

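The FPKM ratio of the atrial essential to the atrial regulatory light chain, Myl4 to Myl7, was looked at after the values were seen and was not tested. It was 1.47, 1.32, 1.601, 1.20 and 2.05 in nAAC replicates 1 to 5 and 0.795, 0.949, 0.849, 1.57 and 1.07 in sham replicates 1 to 5. All nAAC mice were above 1.1 and 4 of the 5 sham mice were below it, and in nAAC replicates 1 and 5 and sham replicate 4 both genes were at an FPKM under 2. By coverage, Myl4 was below Myl7 in every mouse.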
